A study of Mus musculus with 37 samples.

Results

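The genes Fabp1 to Fabp7, which encode 7 fatty acid binding proteins (FABPs), were followed in the livers of 37 CD1 mice after oral dosing with HFPO-DA. HFPO-DA is a short-chain fluorinated ether acid, given here as its ammonium salt in deionized water, and the liver RNA came from formalin-fixed, paraffin-embedded sections measured by TempO-Seq, an assay that counts ligated pairs of detector oligos made for each transcript. The members are these 7 of the 21450 genes on the assay, taken by name with all of their probes. The set was chosen with earlier results of these data known, so counts of calls in it are a description. The members have 12 of the 30146 probes: 1 each for Fabp1, Fabp2, Fabp3 and Fabp6, 2 each for Fabp4 and Fabp5, and 4 for Fabp7. A filter on low counts kept 10 of the 12 probes, of 6 genes, among 18570 probes tested in all, and the probes left out were that of Fabp6 and 1 of Fabp7. The mice were parental (F0) Crl:CD1(ICR) animals of an outbred stock with no engineered allele. Males were about 6 weeks old at the first dose and were dosed for 70 days before mating and through a 14-day mating period, 84 to 85 doses in all. Females were about 11 weeks old at the first dose and were dosed from 14 days before mating until lactation day 20 or 21, 53 to 65 doses in all. Male groups held 5 water-only controls, 5 mice at 0.1 mg/kg per day, 5 at 0.5 and 4 at 5, and female groups held 5, 5, 4 and 4 in the same order. Each library is 1 mouse, so n counts mice throughout, and sex cannot be told apart from age, the number of doses and lactation.

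FABPs are small cytosolic proteins that fold into a barrel around a fatty acid or a related lipid and carry it between membranes, enzymes and the nucleus. Fabp1 is the liver form and is among the most abundant proteins of the hepatocyte cytosol, Fabp2 is the intestinal form, Fabp3 the heart and muscle form, Fabp4 the adipocyte form, Fabp5 the epidermal form, Fabp6 the ileal bile acid binding form and Fabp7 the brain form. Several of the genes are textbook targets of the peroxisome proliferator-activated receptors (PPARs), nuclear receptors that bind fatty acids and pair with RXR on a repeated hexamer called DR1.

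The 7 genes lie on 5 mouse chromosomes in the GENCODE annotation of build GRCm38. Fabp1 is at chr6:71199827-71205023 on the plus strand, Fabp2 at chr3:122895072-122899506 on the plus strand and Fabp3 at chr4:130308595-130315463 on the plus strand, each with 4 exons. Fabp5 at chr3:10012548-10016607 and Fabp4 at chr3:10204088-10208576 sit on opposite strands of 1 stretch of chromosome 3 that also holds the relatives Pmp2, Fabp9 and Fabp12. Fabp6 is at chr11:43596049-43601540 on the minus strand and Fabp7 at chr10:57784881-57788450 on the plus strand. The exon that each probe covers is not given in the sources used here.

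RefSeq promoter sequences (build GRCm38.p6) were found for 5 of the 7 genes, and 3 of them are shown because these genes were raised by HFPO-DA in both sexes. Each is printed 5′ to 3′ on the plus strand, up to the base before the annotated start of the gene, and capitals mark the stretch closest to the DR1 consensus AGGTCANAGGTCA on either strand. The Fabp1 stretch spans chr6:71199629-71199826, that of Fabp2 chr3:122894822-122895071 and that of Fabp3 chr4:130308488-130308594.
Fabp1: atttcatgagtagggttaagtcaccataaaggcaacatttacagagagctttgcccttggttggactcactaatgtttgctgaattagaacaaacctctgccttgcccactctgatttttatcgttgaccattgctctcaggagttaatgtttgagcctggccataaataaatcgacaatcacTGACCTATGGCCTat
Fabp2: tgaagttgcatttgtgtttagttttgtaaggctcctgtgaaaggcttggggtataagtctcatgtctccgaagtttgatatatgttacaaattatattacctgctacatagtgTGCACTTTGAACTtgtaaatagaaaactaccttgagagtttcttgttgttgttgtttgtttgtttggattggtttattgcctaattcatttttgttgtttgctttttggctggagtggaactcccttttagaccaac
Fabp3: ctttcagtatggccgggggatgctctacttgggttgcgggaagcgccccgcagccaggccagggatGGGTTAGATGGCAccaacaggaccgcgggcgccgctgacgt
The capitals in Fabp1 lie 67 bases before the RefSeq start on the minus strand and differ from the consensus at 1 of its 12 fixed positions. The closest stretch differed at 3 positions in Fabp2 and at 4 in Fabp3. Among 32851 promoters of 300 bases searched in the same way, 0.554% held a stretch with at most 1 difference, 24.6% with at most 3 and 79.8% with at most 4, so the Fabp1 window was close to the consensus and the windows of Fabp2 and Fabp3 were like a large share of all promoters. The closest stretch in Fabp6 differed at 4 positions and in Fabp7 at 3. A match of letters is a description of the window and was not tested for binding.

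Levels are given as CPM, counts per 1000000 on TMM-scaled library sizes, and they are compared between mice for a given probe. Probes differ in efficiency, so CPM of different probes are not read as relative amounts of RNA. Marker sums add CPM over probes, are compared between mice, and mostly follow their highest probes. A probe was called when edgeR's quasi-likelihood test gave a Benjamini-Hochberg adjusted p under 0.1 over the 18570 probes, and every adjusted p below is from that test. Library totals ran from 2101495 to 10548222 counts in males and from 7952605 to 13878254 in females. In males 4 libraries held under 5000000 counts: replicate 4 at 0.1 mg/kg, replicate 2 at 0.5 mg/kg and replicates 1 and 3 at 5 mg/kg. Albumin and transthyretin, which define hepatocytes, were found in all 37 livers. The summed CPM of 8 hepatocyte markers was lower at 5 mg/kg, at 13647 to 16765 against 19305 to 25107 in control males and 18259 to 22807 against 22834 to 30027 in control females. Of these 8 markers 6 were called lower in males (8.49% of all probes) and 4 in females (2.26%). The part of this shift in the FABP values was not tested, and in bulk tissue fewer cells of a type and less RNA per cell cannot be told apart.

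At 5 mg/kg most FABP probes were higher than in the vehicle controls of the same sex. In males 6 of 10 tested probes were called higher (4.21% of all tested probes) and 2 lower (8.49%). In females 7 of 10 were called higher (2.26% of all probes) and 0 lower (2.26%). The genes called higher were Fabp1, Fabp2, Fabp3, Fabp4 and Fabp5 in each sex, and the gene called lower was Fabp7, in males. The median log2 fold change of the 10 probes was 1.42 in males and 2.22 in females, beside -0.12 and -0.01 over all probes. At 0.5 mg/kg 2 of 10 probes were called in each sex, all higher: Fabp1 and Fabp2 in males (0.382% of all probes higher) and Fabp1 and Fabp5 in females (0.108%). At 0.1 mg/kg 0 of 10 were called in either sex, where 0% of all probes were called, and an unadjusted p under 0.05 was reached by 1 FABP probe in males (7.14% of all probes) and 0 in females (2.38%). Across groups, 4 of 10 probes at 5 mg/kg in males had all values above the controls (2.78% of all probes) and 1 had all values below (4.80%), and in females 6 of 10 lay above (4.40%). Every count of higher probes at 5 mg/kg includes Fabp3, which passed the count filter only through the 5 mg/kg groups.

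**Figure D1:**
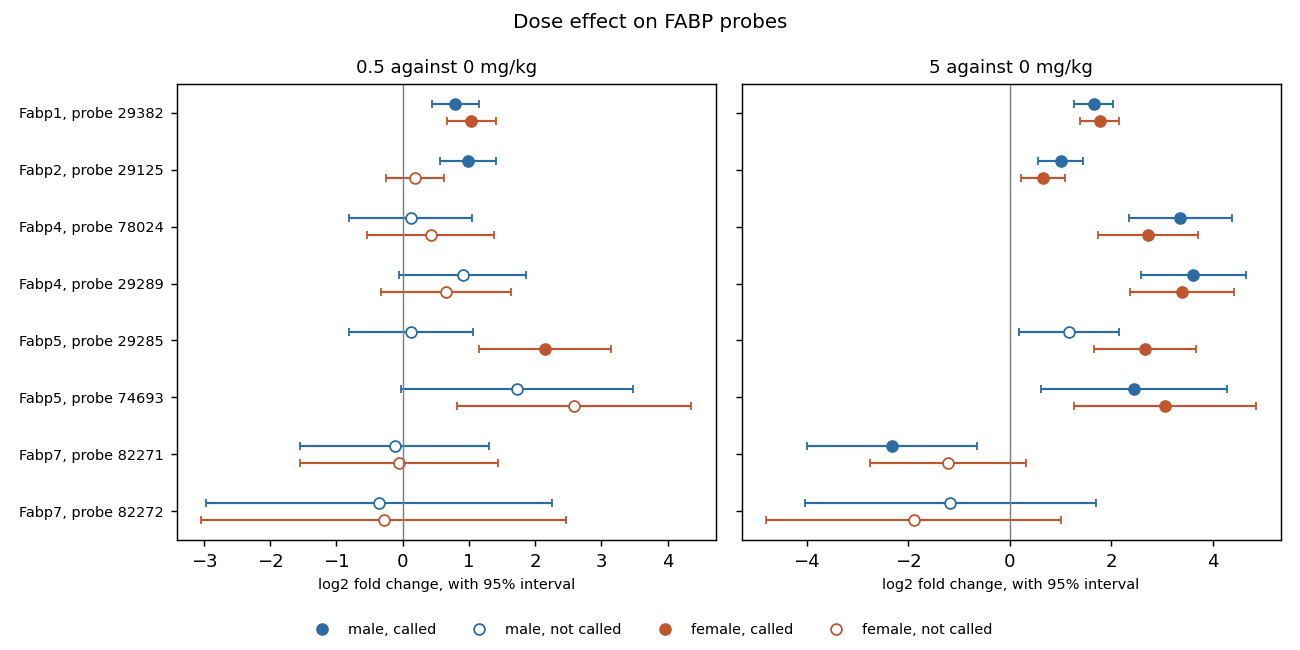
For 8 tested FABP probes (y axis) the log2 fold change (x axis) against the vehicle controls of the same sex is plotted at 0.5 and 5 mg/kg, with 95% intervals from edgeR; filled points were called and open points were not. Fabp3 and probe 29740 of Fabp7 are left out because 1 of the groups held almost no counts; at 5 mg/kg Fabp1 sits at 1.65 in males and 1.77 in females.

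Fabp1, the liver form, rose at 0.5 and 5 mg/kg in both sexes. In males the control livers held 3221, 2370.1, 2398, 3476 and 2655 CPM, the 0.1 mg/kg livers 3029, 3177, 3174, 3396 and 3675, the 0.5 mg/kg livers 4187, 4462, 5464, 6236 and 4178, and the 5 mg/kg livers 9675, 7833, 10173 and 7864. All livers at 0.5 mg/kg lay above all controls (0.652% of all probes did so) and all livers at 5 mg/kg above those at 0.5 mg/kg (2.05%), whereas the lowest dose overlapped the controls. The means ± SD were 2824 ± 499.8, 3290.2 ± 252, 4905 ± 912 and 8886 ± 1216 CPM. Against controls the log2 fold change was 0.80 (SE 0.18, adjusted p = 0.0212) at 0.5 mg/kg and 1.65 (SE 0.19, adjusted p = 1.9e-08) at 5 mg/kg, and 0.22 (adjusted p = 0.999) at 0.1 mg/kg. Without replicate 4 at 0.5 mg/kg, the highest of its group, the change at that dose was 0.70 and was not called (adjusted p = 0.118).

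Female livers also held more Fabp1 at those doses. Controls held 4183, 2764, 2215, 3168 and 1539 CPM, the 0.1 mg/kg livers 2977, 2683, 2767, 2688 and 3562, the 0.5 mg/kg livers 5088, 7313, 5226 and 5178, and the 5 mg/kg livers 8828, 7768, 11142 and 10140.3. As in males, the groups at 0.5 mg/kg and at 5 mg/kg each lay wholly above the group below (1.52% of all probes against controls and 4.09% between the doses), and the lowest dose lay inside the control range. For this probe the log2 fold change was 1.04 (SE 0.19, adjusted p = 0.00302) at 0.5 mg/kg and 1.77 (SE 0.19, adjusted p = 4.82e-09) at 5 mg/kg. The difference between the sexes in the change at 5 mg/kg was 0.12 on the log2 scale, with a 95% interval from -0.41 to 0.65 (adjusted p = 0.976). From 0.5 to 5 mg/kg the log2 change was 0.86 (adjusted p = 0.00311) in males and 0.73 (adjusted p = 0.0514) in females. Without the 4 male libraries under 5000000 counts the male step was 0.61 and was not called (adjusted p = 0.199), and the female step was lost without replicate 3 or 4 at 5 mg/kg or without replicate 1, 3 or 4 at 0.5 mg/kg (adjusted p from 0.129 to 0.268). The Fabp1 probe alone took 0.262% of all counts in control males and 0.974% at 5 mg/kg, and 0.279% and 1.01% in females.

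Fabp2, the intestinal form, rose at 0.5 and 5 mg/kg in males and at 5 mg/kg in females. Control males held 534, 327, 290.3, 413 and 396 CPM, males at 0.5 mg/kg 765, 828, 962, 921 and 411, and males at 5 mg/kg 1007, 877, 489 and 768. At 0.5 mg/kg 4 of 5 males and at 5 mg/kg 3 of 4 males lay above the highest control, and 1 in each group fell inside the control range. Against controls it changed by 0.99 on the log2 scale (SE 0.21, adjusted p = 0.012) at 0.5 mg/kg and by about the same, 1 (SE 0.22, adjusted p = 0.0016), at 5 mg/kg. Between those doses the change was 0.01, with a 95% interval from -0.43 to 0.46. Males at 0.1 mg/kg averaged 538 ± 144 CPM against 392 ± 93.8 in controls and were not called (log2 fold change 0.46, adjusted p = 0.647).

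In females Fabp2 averaged 476 ± 79.4 CPM in controls, 430.4 ± 87.7 at 0.1 mg/kg, 544 ± 113 at 0.5 mg/kg and 749 ± 117 at 5 mg/kg. Each of the 4 females at 5 mg/kg (766, 651, 907 and 672 CPM) lay above the highest control (552 CPM), as was so for 4.40% of all probes. The log2 fold change there was 0.65 (SE 0.22) and passed narrowly, at an adjusted p of 0.0993. Leaving out any 1 of the 9 mice ended that call (adjusted p from 0.11 to 0.351), as did thinning all libraries to the smallest total (adjusted p = 0.112). The female 0.5 mg/kg group was not called (log2 fold change 0.19, adjusted p = 1), and the test of the difference between the sexes at that dose gave -0.80 with an unadjusted p of 0.0115 and an adjusted p of 0.753. Of 6 enterocyte markers, lactase had 0 counts in all 37 mice, sucrase-isomaltase, Alpi, Cdx1 and Cdx2 were below the count filter, and villin (Vil1) had counts in 33 mice, at most 58.8 CPM. Vil1, the 1 marker tested, was not called at 5 mg/kg (log2 fold change -1.34 in males and -1.57 in females), and the summed markers reached 61.5 CPM in 1 control male and 17.2 at most at 5 mg/kg.

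**Figure D2:**
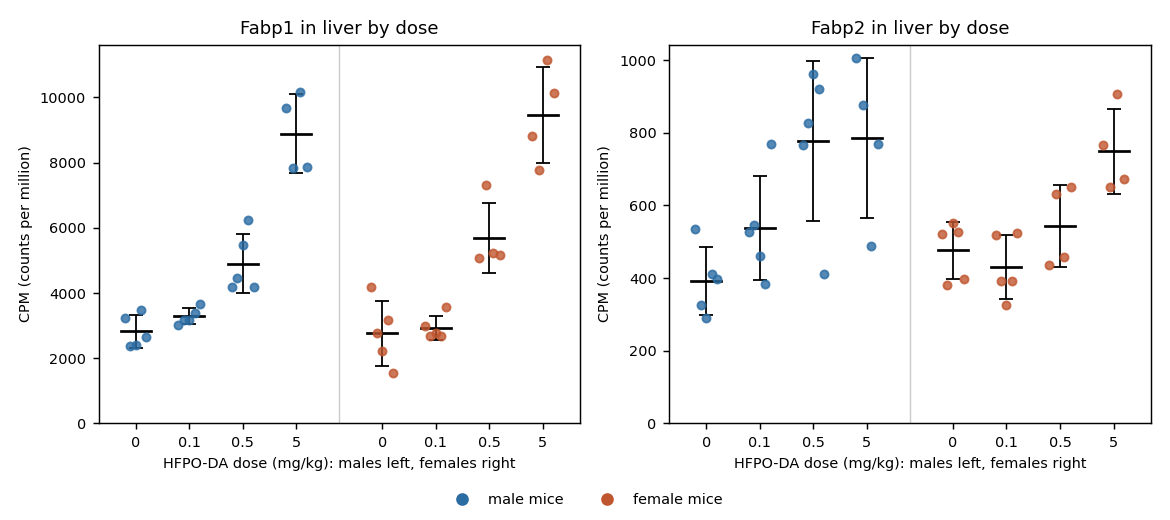
CPM (y axis) of Fabp1 and Fabp2 is plotted for each mouse by dose (x axis, mg/kg), with the group mean as a line and the SD as bars. Fabp1 goes from means of 2824 and 2774 CPM in control males and females to 8886 and 9469 at 5 mg/kg; for Fabp2 the male means at 0.5 and 5 mg/kg are 778 and 785.

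Fabp3, the heart and muscle form, was nearly absent at the lower doses and present in every liver at 5 mg/kg. Over the 5 control males, the 5 at 0.1 mg/kg and the 5 at 0.5 mg/kg its probe had 2, 4 and 2 counts in all, each from 1 mouse. The 4 males at 5 mg/kg had 169, 248, 73 and 332 counts, or 39.9, 27.4, 27.4 and 51.3 CPM. In females the sums were 1, 0 and 10 counts, 9 of the 10 from replicate 3 at 0.5 mg/kg, and then 108, 223, 145 and 284 counts (12.6, 20.3, 12.7 and 24.2 CPM) at 5 mg/kg. The groups at 5 mg/kg lay wholly above all others in both sexes. Against controls 2.78% of all probes did so in males and 4.40% in females. Below 5 mg/kg no mouse had more than 9 counts, so this probe passed the count filter only through the 5 mg/kg groups. It was called higher, with an adjusted p of 1.39e-07 for males and 4.13e-07 for females, given as a description for that reason. Because so few counts stood in the controls, the size is given as the ratio of the group's summed counts to those of the controls, each divided by the group's summed library sizes, which was 697 (95% exact interval 192 to 5767) in males and 929 (166 to 36737) in females, intervals that cover counting error only. Against 0.5 mg/kg the ratio was 608 (168 to 5032) in males and 74.9 (40.5 to 157) in females. The fitted log2 change between these doses moved from 6.19 to 8.49 in females without replicate 3 at 0.5 mg/kg, and from 8.90 to 11.3 in males without replicate 1 at 0.5 mg/kg, each the mouse that held most or all of the counts. Against controls it moved from 9.10 to 11.3 without male control replicate 4 and from 9.03 to 10.3 without female control replicate 2, and all of these were still called. Of 6 striated muscle markers, Acta1 had counts in all 37 mice (at most 25.6 CPM), Ckm in 24, Tnnt2 in 22, Myh7 in 12, Myh6 in 1 and myoglobin in 0. Of the 3 tested, 0 were called higher at 5 mg/kg (4.21% of all probes in males and 2.26% in females). In males 1 was called lower (Tnnt2, where 8.49% of all probes were) and in females 0 (2.26%). Their summed CPM was 4.17 to 18.8 at 5 mg/kg against 8.05 to 30.4 in control males and 5.95 to 25.3 against 5.16 to 22.3 in females.

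Fabp4, the adipocyte form, which is also made by capillary endothelium and macrophages, rose at 5 mg/kg in both sexes. With probe 78024 control males held 28.5, 15.3, 15.9, 11.7 and 33.8 CPM and males at 5 mg/kg 193, 212, 336 and 128. These groups did not overlap (2.78% of all probes lay wholly above the controls), with a log2 fold change of 3.37 (SE 0.50, adjusted p = 5.89e-06). Probe 29289 went from 5.63 ± 1.21 to 69.7 ± 46.2 CPM, again without overlap (log2 fold change 3.62, adjusted p = 2.32e-06). At 0.5 mg/kg probe 78024 averaged 22.7 ± 17.9 CPM and was not called, whereas probe 29289 lay above the controls in 5 of 5 males (8.26 to 14.0 against 4.52 to 7.36 CPM; 0.652% of all probes did so) and was not called either (log2 fold change 0.91, adjusted p = 0.526).

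The 4 females at 5 mg/kg split in 2 for Fabp4. Probe 78024 stood at 231 and 266 CPM in replicates 1 and 2 and at 20.1 and 37.6 CPM in replicates 3 and 4, beside 14.2 to 30.4 CPM in the 5 controls. Replicate 3 lay inside the control range and replicate 4 just above it. The second probe gave the same order, with 93.9 and 123 CPM in the first pair and 9.92 and 10.1 CPM in the other. Here all 4 lay above the controls (4.59 to 8.07 CPM), as was so for 4.40% of all probes. The log2 fold change over the group was 2.72 (SE 0.49, adjusted p = 0.000207) with probe 78024 and 3.40 (SE 0.51, adjusted p = 8.91e-06) with probe 29289, values that average over this split. Without replicate 2 the latter was 2.75 (adjusted p = 0.000362). No other female group passed (0.5 mg/kg: log2 fold change 0.42 and 0.66, adjusted p = 1 for both). From 0.5 to 5 mg/kg the change of probe 78024 in females was 2.30 (adjusted p = 0.0122), and without replicate 2 at 5 mg/kg it was 1.77 and not called (adjusted p = 0.133). The 2 probes tracked each other mouse by mouse, with r = 0.903 over 37 mice and 0.757 after subtracting group means, as a description.

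Of the markers of cell types known to make Fabp4, 0 were called higher at 5 mg/kg in either sex. Over all tested probes 4.21% were called higher and 8.49% lower in males, and 2.26% and 2.26% in females. Of 8 adipocyte markers 3 passed the count filter, 1 was called lower in males at 5 mg/kg (Lipe) and 0 in females, and leptin, resistin, adiponectin, perilipin 1 and Cfd had at most 3.23 CPM in any liver. In the 4 females at 5 mg/kg the summed adipocyte markers were 3.97, 10.8, 20.1 and 4.08 CPM for replicates 1 to 4. Most of that sum was Adrb3, with a group mean of 7.20 CPM. In the same mice the summed Kupffer cell and macrophage markers were 145.9, 344, 241 and 211 CPM. The summed endothelial markers were 258, 293, 301 and 331 CPM. How these sums relate to the Fabp4 split was not tested. Summed Kupffer cell and macrophage markers were 145.9 to 344 CPM at 5 mg/kg against 148.8 to 295 in control females and 79.9 to 259.9 against 64.6 to 283 in control males, and 0 of 8 were called in either sex. Summed endothelial markers were 258 to 331 CPM at 5 mg/kg against 331 to 356 in control females and 238 to 344 against 305 to 420.2 in control males, with 1 of 8 called lower in males (Kdr) and 0 in females.

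**Figure D3:**
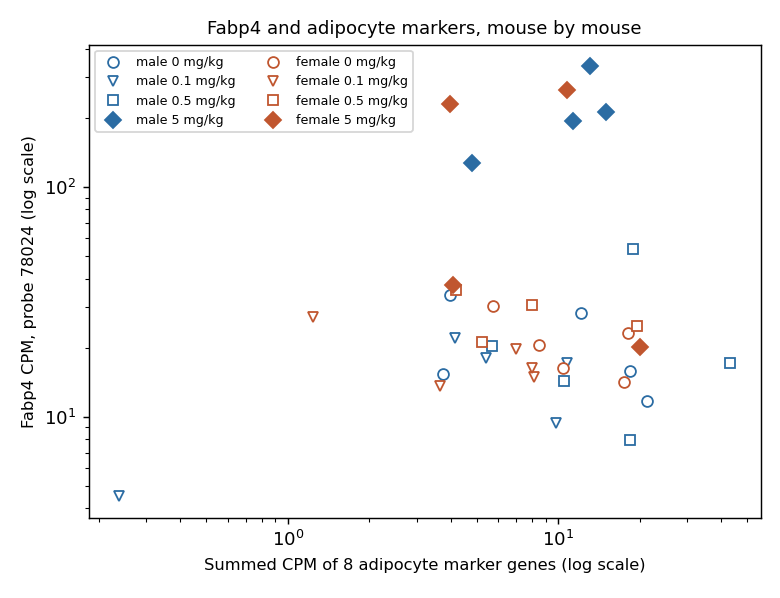
Fabp4 CPM (probe 78024, y axis, log scale) is plotted against the summed CPM of 8 adipocyte marker genes (x axis, log scale) for each of the 37 mice. The 4 males at 5 mg/kg sit at 128 CPM or higher and the 4 females at 5 mg/kg at 20.1, 37.6, 231 and 266 CPM, across adipocyte sums from 3.97 to 20.1 CPM.

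Fabp5, the epidermal form, rose in females at 0.5 mg/kg with 1 of its 2 probes and at 5 mg/kg with both, and in males 1 of the 2 passed at 5 mg/kg. Probe 29285 stood at 122, 34.7, 51.9, 143 and 22.1 CPM in control females, 305, 370.1, 375 and 277 at 0.5 mg/kg and 989, 467, 213 and 226 at 5 mg/kg. Both of these dosed groups lay wholly above the controls (1.52% of all probes did so at 0.5 mg/kg and 4.40% at 5 mg/kg) but overlapped each other. The fitted change was 2.15 on the log2 scale (SE 0.49, adjusted p = 0.0774) at 0.5 mg/kg and 2.66 (SE 0.50, adjusted p = 0.000371) at 5 mg/kg, and 0.51 (95% interval -0.52 to 1.54) between them. The call at 0.5 mg/kg was lost in the robust fit (adjusted p = 0.33) and without any 1 of the 4 mice at 0.5 mg/kg or control replicate 2, 3 or 5 (adjusted p from 0.121 to 0.365). Without replicate 1 at 5 mg/kg, the highest liver, the change at 5 mg/kg was 2.01 (adjusted p = 0.0117). Replicates 1 and 2 at 5 mg/kg, the mice with high Fabp4, also held the highest Fabp5, and the same mice held the lowest Fabp1 of that group. This order of 4 mice was seen after the fact and was not tested. In males at 5 mg/kg replicate 3 held both the highest Fabp4 (336 CPM, probe 78024) and the highest Fabp1 (10173 CPM).

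Male livers held 40.1 ± 22.2 CPM of Fabp5 in controls, 34.2 ± 10.6 at 0.1 mg/kg, 43.3 ± 31.8 at 0.5 mg/kg and 90.6 ± 30.6 at 5 mg/kg with probe 29285. The top dose (77.1, 132, 93.4 and 60.1 CPM) overlapped the controls (10.9 to 69.0 CPM) and was not called, with a log2 fold change of 1.18 (SE 0.49, adjusted p = 0.132). Other settings called it, with DESeq2's size factors, with no count filter, with both probes summed and without control replicate 2 (adjusted p = 0.0983, 0.0367, 0.0951 and 0.0873). Probe 74693, which had fewer counts, was called in males at 5 mg/kg (log2 fold change 2.45, SE 0.91, adjusted p = 0.0856) at 2.01 to 8.73 CPM against 0 to 2.27 CPM, which overlap. That call was lost without control replicate 1, 2 or 5 or without replicate 1, 2 or 3 at 5 mg/kg (adjusted p from 0.124 to 0.167), when each sex was fitted apart (0.339), with thinned counts (0.106) and without the 4 male libraries under 5000000 counts (0.253). In females the same probe gave 8.22, 15.9, 15.6 and 11.1 CPM at 0.5 mg/kg and 42.2, 15.3, 6.76 and 6.38 at 5 mg/kg. All values of this probe lay above the controls (0.562 to 5.41 CPM), as was so for 1.52% and 4.40% of all probes. Its log2 fold change in females was 2.59 (adjusted p = 0.913) and 3.06 (adjusted p = 0.0407), the latter not called without control replicate 2, 3 or 5 or replicate 1 at 5 mg/kg (adjusted p from 0.104 to 0.354).

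The difference between the sexes in the Fabp5 change was 2.03 on the log2 scale at 0.5 mg/kg (unadjusted p = 0.00438, adjusted p = 0.71) and 1.49 at 5 mg/kg (unadjusted p = 0.0377, adjusted p = 0.432) with probe 29285, and was not called at either dose. With probe 74693 it was 0.87 and 0.61 (adjusted p = 1 and 0.973). Markers of squamous epithelium, where Fabp5 was first described, were near 0: the summed CPM of Krt1, Krt5, Krt10 and Krt14 was at most 2.14 in any liver.

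**Figure D4:**
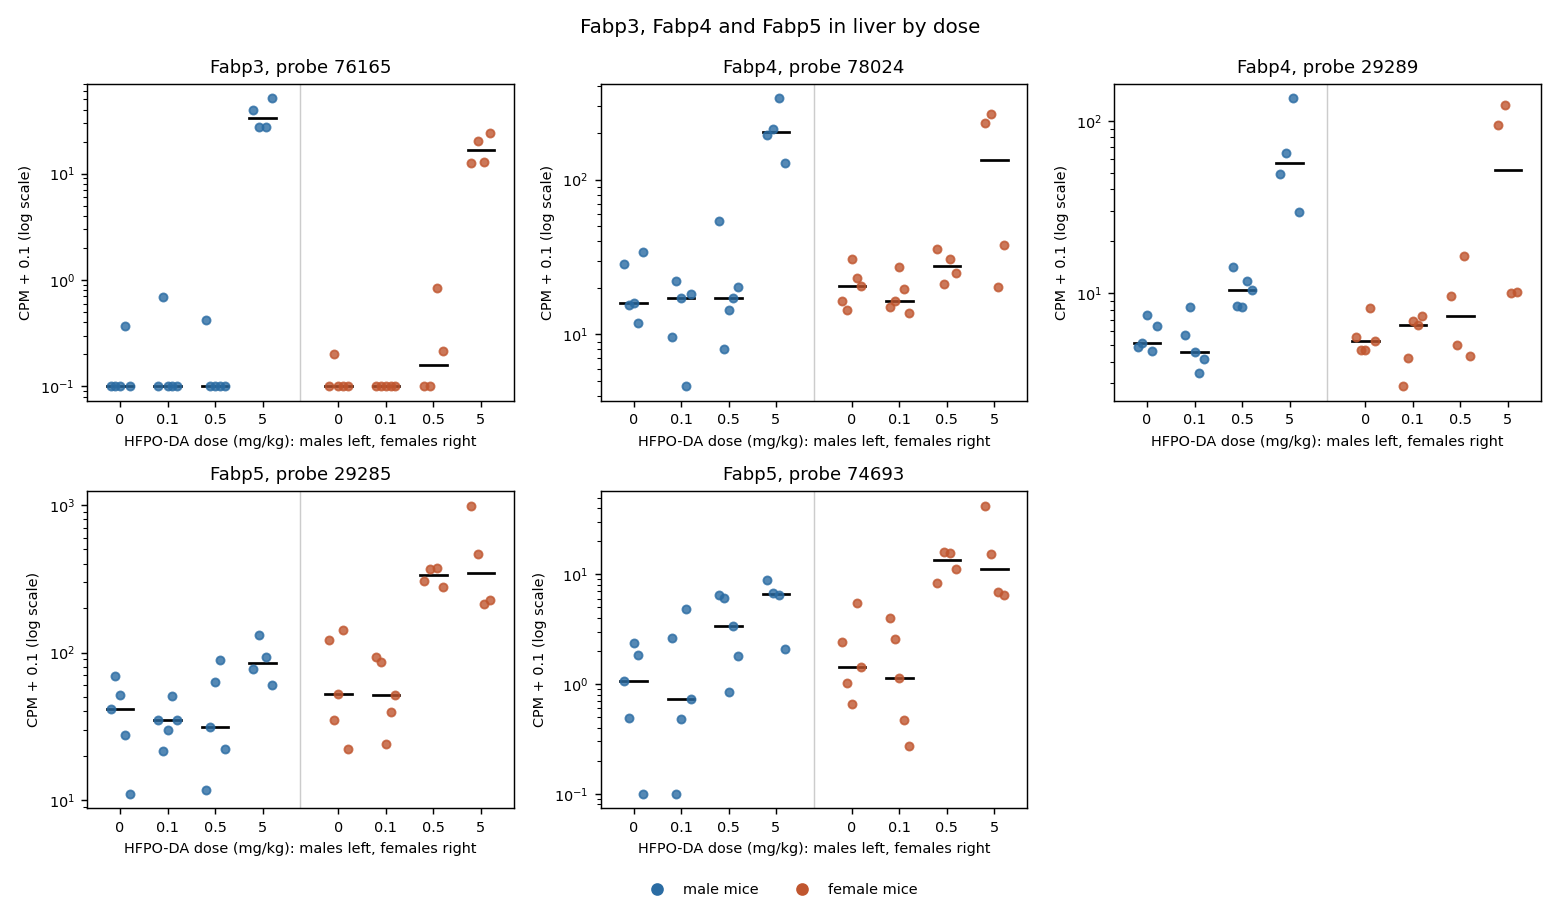
CPM plus 0.1 (y axis, log scale) of the probes of Fabp3, Fabp4 and Fabp5 is plotted for each mouse by dose (x axis, mg/kg), with the group median as a line. Fabp3 sits at 27.4 to 51.3 CPM in males and 12.6 to 24.2 in females at 5 mg/kg and near 0 elsewhere; the females at 5 mg/kg fall in a high and a low pair for both Fabp4 probes.

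Fabp7, the brain form, fell in males at 5 mg/kg with 2 of its 3 tested probes. With probe 29740 the control males had 21, 16, 14, 13 and 21 counts and the 4 males at 5 mg/kg had 0. With a floor of 3 counts set over the group this is at least 16.7-fold lower, a bound that covers counting error only. All controls lay above all males at 5 mg/kg (so for 4.80% of all probes), and the probe was called lower (adjusted p = 0.0142). At 0.1 and 0.5 mg/kg males ranged from 0 to 58 and from 0 to 35 counts. Probe 82271 had 0, 17, 0 and 12 counts at 5 mg/kg against 23, 51, 11, 66 and 46 in control males and was called lower (log2 fold change -2.32, SE 0.83, adjusted p = 0.0737). Probe 82272 was not called (log2 fold change -1.17, SE 1.42, adjusted p = 0.705), with 22 of its 23 counts at 5 mg/kg in replicate 4, and without that mouse the change was -4.99 (adjusted p = 0.112). The last one, probe 79574, had 0 counts in all 37 mice.

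Depth moved with this result. The 2 males at 5 mg/kg with 0 counts in all Fabp7 probes (replicates 1 and 3) had the smallest libraries of the group, 4147445 and 2101495 counts, and the others had 18 and 34 counts. Without the 4 male libraries under 5000000 counts, probe 82271 was not called (log2 fold change -1.52, adjusted p = 0.327) and probe 29740 was still called (adjusted p = 0.0587). Leaving out control replicate 2, 4 or 5 or replicate 1 or 3 at 5 mg/kg also ended the call of probe 82271 (adjusted p from 0.105 to 0.164), as did fitting each sex apart (adjusted p = 0.309). Summed over the probes, control males held 359 counts and males at 5 mg/kg 52, a ratio relative to library size of 0.246 (95% exact interval 0.18 to 0.329, counting error only).

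In females no Fabp7 probe was called at 5 mg/kg, with log2 fold changes of -0.06, -1.21 and -1.89 for probes 29740, 82271 and 82272 (adjusted p = 1, 0.644 and 0.793). Probe 82271 reached 4.93 CPM at most in females at 5 mg/kg and ran from 4.16 to 10.3 in their controls, and was called when each sex was fitted apart (adjusted p = 0.0517). The difference between the sexes for probe 29740 had an unadjusted p of 0.00282 and an adjusted p of 0.207. Probes of Fabp7 agreed less than those of Fabp4, with r from 0.382 to 0.59 over 37 mice and 0.23 to 0.418 after subtracting group means. Glial markers were close to 0, with a summed CPM of at most 8.25 in any liver, in the smallest library.

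Fabp6, the ileal bile acid binding form, was at the limit of detection, with 0 to 9 counts per mouse. Group sums were 10, 13, 8 and 0 counts in males and 7, 8, 12 and 8 in females from 0 to 5 mg/kg, so a difference was not detectable at this depth. Of 6 listed bile acid carriers and partners of Fabp6, 4 passed the count filter. At 5 mg/kg 1 of these was called lower in males (8.49% of all probes) and 2 in females (2.26%). Slc10a1, the hepatocyte uptake carrier for bile acids, fell in both sexes, from a mean of 292 to 103 CPM in males (adjusted p = 4.89e-06) and from 325 to 195 CPM in females (adjusted p = 0.042).

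**Figure D5:**
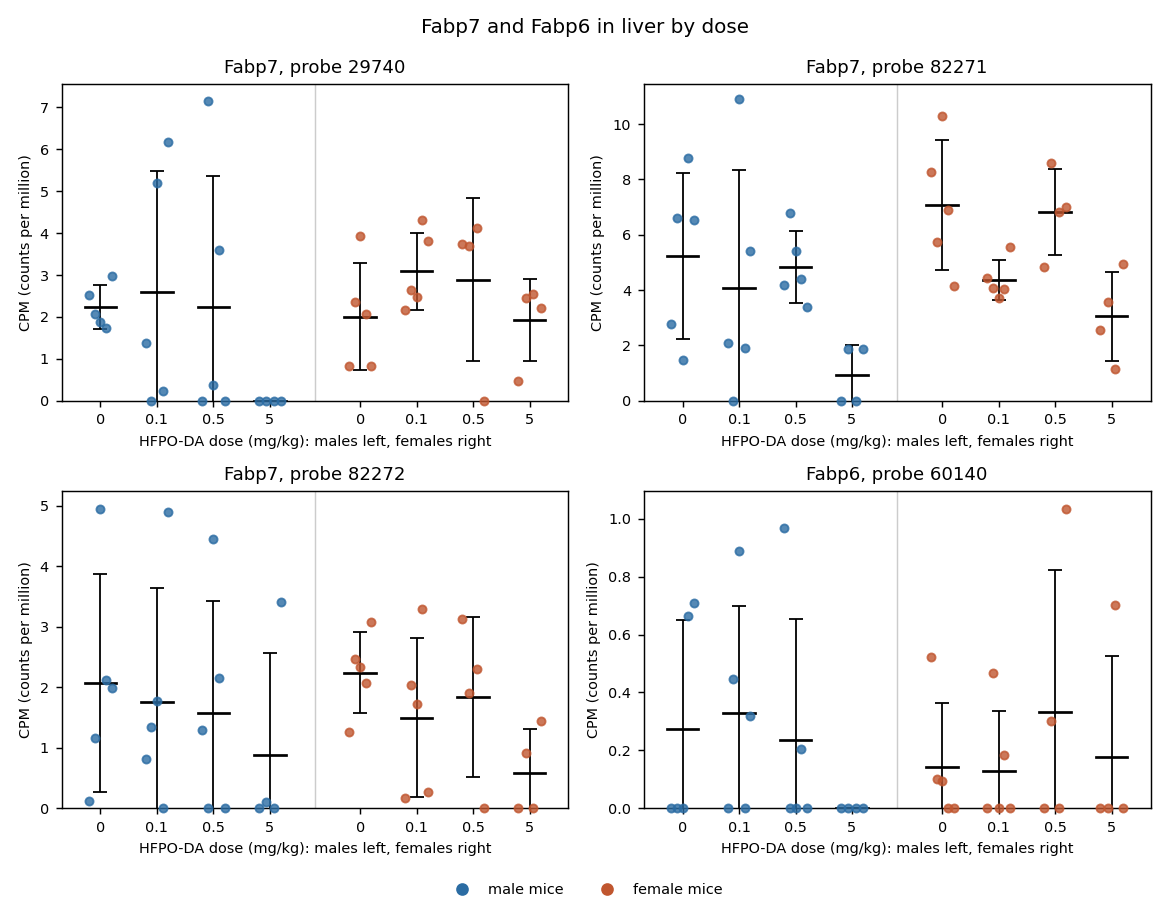
CPM (y axis) of 3 Fabp7 probes and the Fabp6 probe is plotted for each mouse by dose (x axis, mg/kg), with the mean as a line and the SD as bars, whose lower ends stop at 0. The 4 males at 5 mg/kg are at 0 for Fabp7 probe 29740 and Fabp6; Fabp6 stays at or under 1.03 CPM everywhere.

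Between control females and control males 0 of 10 FABP probes were called, where 2.60% of all probes were called, and 0 had an unadjusted p under 0.05 (10.9% of all probes). For Fabp1 the difference was -0.03 on the log2 scale, with a 95% interval from -0.38 to 0.33, and for Fabp5 (probe 29285) it was 0.90, with an interval from -0.04 to 1.83. In the test of the difference between the sexes in the dose effect, 0 of 10 were called at 0.5 mg/kg (0.0108% of all probes) and 0 of 10 at 5 mg/kg (0.630%), with 2 at each dose under an unadjusted p of 0.05 (5.13% and 10.7% of all probes). With DESeq2 1 was called at 5 mg/kg, probe 29740 of Fabp7 (adjusted p = 0.0967). From 0.5 to 5 mg/kg 4 of 10 probes were called higher and 1 lower in males (3.16% and 5.57% of all probes) and 4 higher in females (0.635%): those of Fabp1, Fabp3 and Fabp4 in each sex, and probe 29740 of Fabp7 in males. That Fabp7 call was lost when each sex was fitted apart (adjusted p = 0.131) and without the 4 male libraries under 5000000 counts (0.167). Those steps share the 5 mg/kg livers with the comparisons against controls.

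Other genes of fatty acid handling were read as lists, which were chosen with earlier results of these data known. Of 13 tested genes of fatty acid uptake and activation, 5 were called higher and 2 lower in males at 5 mg/kg, and 4 and 1 in females. Over all tested probes the shares called higher and lower were 4.21% and 8.49% in males and 2.26% and 2.26% in females. Cd36, a fatty acid receptor of the plasma membrane, rose from 11.3 ± 9.17 to 262 ± 6.64 CPM in males (adjusted p = 4.75e-09) and from 61.8 ± 27.5 to 293 ± 21.8 in females (adjusted p = 0.000646). Slc27a1, a fatty acid transport protein, rose by 4.38 on the log2 scale in males (adjusted p = 4.83e-11) and by 3.14 in females (adjusted p = 5.03e-08). Acsl1 and Acsl5, which activate fatty acids to acyl-CoA, rose by 1.34 and 1.40 in males and by 1.12 and 0.87 in females. The lower member in both sexes was Slc27a5, the bile acid and very long chain acyl-CoA ligase, at -0.97 and -0.71. At 0.5 mg/kg 3 of 13 were called higher in males (Cd36, Slc27a1 and Acsl1, where 0.382% of all probes were) and 0 in females (0.108%).

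Among 6 tested carriers of acyl-CoA and sterols, 1 was called higher and 1 lower in males at 5 mg/kg (4.21% and 8.49% of all probes). In females 3 were called higher (2.26%). Dbi, the acyl-CoA binding protein, rose in both sexes (log2 fold change 1.12, adjusted p = 2.56e-05 in males and 1.01, adjusted p = 0.000207 in females). Of the other intracellular lipid binding genes, the retinol carriers and their kin, 3 of 8 passed the count filter and 0 were called at 5 mg/kg in either sex. Of 11 receptors and hepatic factors, 1 was called in each sex, and both calls were lower. Over all tested probes 8.49% were called lower in males, near the share of this list, and 2.26% in females. The called genes were Nr1h4 in males (-0.53, adjusted p = 0.0849, against 0.09, adjusted p = 1, in females) and Rxra in females (-0.55, adjusted p = 0.0437, against -0.42, adjusted p = 0.1002, in males). The difference between the sexes in the change was not called for either gene (adjusted p = 0.403 for Nr1h4 and 0.96 for Rxra). Ppara itself stood at -0.58 in males and 0.29 in females and was not called.

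A list of 10 reference PPARα targets, also chosen with earlier results of these data known, was read in the same livers as a description. At 5 mg/kg 9 of 10 were called higher in males (4.21% of all probes) and 8 of 10 in females (2.26%), with medians of 5.07 and 4.54 on the log2 scale. At 0.5 mg/kg 6 and 5 were called higher (0.382% and 0.108%). Ehhadh, the peroxisomal bifunctional enzyme, rose by 5.51 in males and 5.03 in females, Acot1, an acyl-CoA thioesterase, by 4.78 and 4.80, and the ω-hydroxylases Cyp4a10 by 6.47 and 4.38 and Cyp4a14 by 5.95 and 5.91. Plin2, a lipid droplet coat protein, rose by 2.45 and 1.76.

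The probes whose mouse-to-mouse course was most like that of each FABP were found by Pearson's r of log2 CPM over the 37 mice, after subtracting the mean of each sex, as a description in which shared dose carries much of r. For Fabp1 they were Ehhadh (r = 0.937), Decr1 (0.932) and Retsat (0.929), and for Fabp2 Acsl1 (0.804), Acaa2 (0.796) and Dbi (0.79). Fabp3 was most like Ucp3 (0.949), Ucp2 (0.905) and Aqp3 (0.905), and Fabp4 most like Fabp3 (0.815), Col4a1 (0.808) and Cpt1b (0.802). For Fabp5 the probes were Scd1 (0.753), Pmvk (0.748) and Tfpi2 (0.741), and for Fabp7 Pml (0.797), Zfp654 (0.784) and Zfp969 (0.766). Among the members, Fabp1 and Fabp3 had r = 0.792, Fabp1 and Fabp5 0.741, Fabp1 and Fabp2 0.708 and Fabp2 and Fabp4 0.376, and Fabp7 had negative r with each of the others, from -0.143 with Fabp2 to -0.58 with Fabp3.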

How the data were processed

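TempO-Seq libraries were made from liver sections of 40 mice, and the authors removed 3 for low depth or few probes. The deposited table holds raw counts per probe for 37 mice; per the labels bcl2fastq 2.17.1.14 and Bowtie were used, and the genome build is not given in the sources used here. All 37 sample columns were mapped by title and no columns were left over. Totals were 2101495 to 13878254 counts per mouse. Here, edgeR 4.0.16 (R 4.3.3, limma 3.58.1) was used with TMM scaling, filterByExpr and 1 mean per group of sex and dose over all 37 mice, and its quasi-likelihood test, with p-values adjusted by Benjamini and Hochberg across 18570 probes and called under 0.1, the threshold of the study. Standard errors are the fold change divided by the root of F. The procedure was run on simulated data with a single fixed spread and changes only in probes with many counts. That run does not cover probes with few counts, and its outcome is not given here. Low totals widen the counting error of probes with few counts. Replicates differed beyond sampling noise (chi-square per degree of freedom of at least 20.0), and 0 columns were identical. The members and gene lists were chosen with earlier results of these data known. Named are all FABP probes, the 3 most similar probes of other genes per FABP gene, and list genes called in both sexes at 5 mg/kg, at most 6 per list by smallest p (1 gene so selected is not reported here), while Lipe, Kdr, Tnnt2, Acta1, Ckm, Vil1, Nr1h4, Rxra, Ppara and single undetected markers were named after their values were seen. The 6 gene lists and 9 marker lists are given by counts or sums. Alternatives were DESeq2 1.42.0 and its size factors, other count filters, each sex apart, thinned counts, summed probes, a robust fit, a threshold of 0.05 and leaving out single mice; leaving out the 4 smallest male libraries was chosen after seeing the data. The labels give no batch.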

Additional observations from a re-analysis of the deposited data

Results flagged for a closer look

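Of 78 groups of 4 or 5 mice tested with Dixon's criterion, 11 had 1 mouse apart from the rest. The criterion's rate of 1 in 20 holds for continuous and independent values, so the 11 cannot be judged against it. A group where 1 mouse alone held counts, as for Fabp3, is flagged whatever the count. Probes of 1 gene also share the same mice. Female replicate 2 at 0.5 mg/kg had the highest Fabp1 of its group, at 7313 CPM against 5088 to 5226 in the others. For Fabp3, 5 of the 11 came from groups where the other mice were at or near 0: male control replicate 4 at 0.266 CPM, male replicate 2 at 0.1 mg/kg at 0.594, male replicate 1 at 0.5 mg/kg at 0.322, female control replicate 2 at 0.102 and female replicate 3 at 0.5 mg/kg at 0.74, the last from 9 counts. With Fabp4 probe 29289, female control replicate 4 stood at 8.07 CPM against 4.59 to 5.45, and with probe 78024 male replicate 1 at 0.5 mg/kg stood at 53.7 CPM against 7.92 to 20.3. Fabp7 probe 29740 was at 0 CPM in female replicate 4 at 0.5 mg/kg against 3.70 to 4.11, and at 0.467 CPM in female replicate 1 at 5 mg/kg against 2.21 to 2.55. Fabp7 probe 82272 was at 3.40 CPM in male replicate 4 at 5 mg/kg against 0 to 0.11 in the others.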

How the results depend on the processing

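Counts of FABP probes called kept within 1.5 times of the reported ones in 103 of 107 recomputed counts under other settings and in 113 of 121 with 1 mouse left out. Many of these set 0 against 0. With 1 mouse left out, every run gave 0 at 0.1 mg/kg (10 runs per sex) and between controls (10). The same held for the difference between the sexes at 0.5 mg/kg (19) and 5 mg/kg (18). At 0.5 mg/kg in females 1 probe in place of 2 was called in the robust fit and at an adjusted p under 0.05, and in males from 0.5 to 5 mg/kg 3 in place of 5 without the 4 libraries under 5000000 counts. The test between the sexes at 5 mg/kg called 1 in place of 0 with DESeq2. Leaving out 1 mouse gave 1 to 2 calls at 0.5 mg/kg, in females without control replicate 2, 3 or 5 or any dosed mouse and in males without replicate 4 at 0.5 mg/kg. At 5 mg/kg the settings other than leaving out a mouse called 6 to 9 probes in males and 5 to 8 in females. With 1 mouse left out the counts at 5 mg/kg were 6 to 8 in males. In females they were 5 to 6 over 9 runs, so none gave the reported 7.

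The step of Fabp2 from 0.5 to 5 mg/kg in males turned to -0.0072 with a mean of at least 10 counts and to -0.0088 with each sex fitted apart, and ran from -0.19 to 0.18 with 1 mouse left out. Other values whose sign turned with 1 mouse left out were the Fabp1 difference between controls (-0.22 to 0.13), the Fabp1 difference between the sexes at 5 mg/kg (-0.035 to 0.31), the step of Fabp5 probe 29285 from 0.5 to 5 mg/kg in females (-0.14 to 0.76), the difference between the sexes for probe 74693 at 5 mg/kg (-0.29 to 1.33) and Fabp7 probe 29740 in females at 5 mg/kg (-0.25 to 0.32). None of the 17 turned values was called in either form. The cause of these changes was not tested. The dose groups held separate mice, so the comparisons between doses had no pairs. The labels give no replicate numbers, and those used here follow the order of the samples within each group.

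Depth limits Fabp3 at the lower doses, Fabp6 and Fabp7, where a mouse held few or 0 counts. DESeq2 gave no adjusted p for some low probes, and these were left out of the comparison. Libraries were single livers of separate mice with no repeat library.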
